A study of Mus musculus with 6 samples.

Results

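Preadipocyte and fibroblast markers are genes whose products tell uncommitted stromal cells from fat cells. The set held 10 genes, Dlk1, Pdgfra, Pdgfrb, Thy1, Ly6a, Cd34, Gata2, Gata3, Fap and S100a4, and its members were all array probe sets that the platform annotation assigned to exactly 1 of them. This gave 14 probe sets of 45101 on the array, for 9 of the 10 genes. No probe set named Ly6a alone, so Ly6a was not analysed here. The markers were measured in 3T3-L1 cells, a line of mouse embryo fibroblasts that hormones can drive to become adipocytes. There were 3 arrays of control cells and 3 arrays of cells treated with resveratrol, a plant polyphenol. The labels name no dose, length of treatment, solvent or stage of differentiation, no animal enters, and a cell line stands for fat tissue only as a model in culture. No label says whether each array had its own culture, or whether cultures were grown on separate occasions. The p-values therefore measure only the spread between these arrays, and the number of arrays limits the precision. Control and treated cultures below are the samples on these arrays.

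When preadipocytes become fat cells, they leave the cell cycle, switch on the nuclear receptor gene Pparg and fill with lipid, while genes of the progenitor state are switched off. DLK1 (also called Pref-1) is a membrane protein with EGF repeats whose shed form holds back fat cell formation, and GATA2 and GATA3 are zinc finger factors that repress Pparg in preadipocytes. The PDGF receptors, THY1, CD34 and LY6A are surface proteins used to sort stromal progenitors, FAP is a surface protease of activated fibroblasts, and S100A4 is a calcium-binding protein also known as fibroblast-specific protein.

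Of the markers, Thy1 rose and Fap fell with resveratrol, and none of the other markers tested passed. Thy1 was 1.32 times the control level and Fap 0.487 times, as ratios of mean intensity. S100a4, at 1.31 times the control level, lay just outside the threshold. Dlk1 and the brighter probe sets of both PDGF receptors lay within 0.18 of the control on the log2 scale.

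Values are the authors' deposited intensities on a linear scale, in arbitrary units. Differences are on the scale of log2(intensity + 16), resveratrol minus control, which understates the changes of dim probe sets. They were tested in 1 limma fit over 27022 probe sets, with Benjamini-Hochberg adjusted p-values over all of them. Of the 14 marker probe sets, 12 passed the filter on mean level, for 7 genes. The probe sets of Cd34 and Gata3 did not pass. Of the 12 tested, 1 was higher, where 3.95% of all probe sets tested were, and 1 was lower, against 4.22%. In either direction, 16.7% of the marker probe sets were called, against 8.17% of all. The groups did not overlap for 4 of the 12, against 26.4% of all probe sets tested. The median difference was 0.10 over the 12 and 0.01 over all probe sets tested, and the median size of the difference was 0.24 against 0.15. Since 2 calls make up the whole share, it is a description of this set only.

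**Figure D1:**
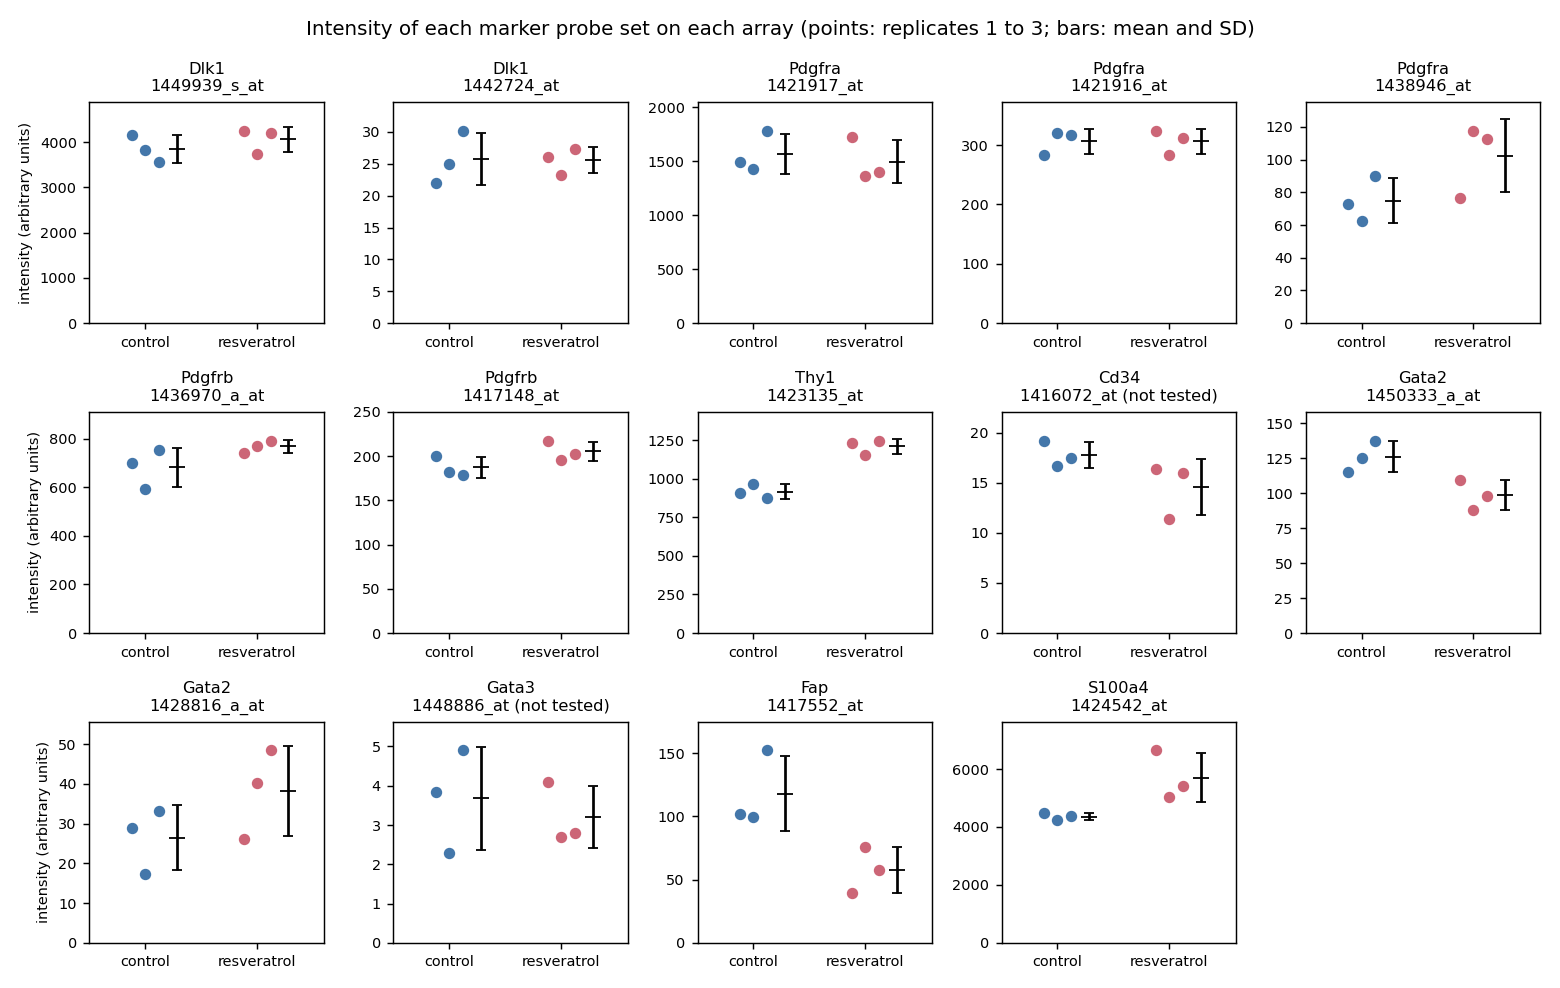
Intensity (arbitrary units, linear axes from 0) of each of the 14 marker probe sets on the 3 control and 3 resveratrol arrays; points are arrays in the order of replicates 1 to 3, and bars are the mean and SD of each group. Thy1 and S100a4 are higher on every resveratrol array than on any control array, and Fap, Cd34 and the brighter Gata2 probe set are lower on every one.

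The arrays as a whole bear on some of these values. Every array had the same mean after trimming 2% at each end, 150, and the bacterial and phage spike probe sets were brighter on control replicates 1 and 2 and resveratrol replicate 1, with mean log2 signals of 10.7 to 11.01, than on the other 3 arrays, with 9.97 to 10.3. Differences within each of these sets of arrays are given for some of the markers. Each rests on a single array in 1 group, resveratrol replicate 1 in the brighter set and control replicate 3 in the dimmer set. For adipocyte genes, Fabp4 and Adipoq, which encode the fat cell fatty acid carrier and adiponectin, had control intensities of 11745 ± 2843 and 8620 ± 2073 (SD, n = 3). The control cultures thus held transcripts of fat cells together with those of progenitors. In RNA from whole cultures, fewer cells of a type and less RNA per cell cannot be told apart.

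Upstream sequences of members show the DNA before the start of transcription for the genes described next. They are from RefSeq on build GRCm38.p6, where 6 of the 10 genes had an entry, and 4 windows of 250 bases before the start are printed, all on the plus strand. S100a4 is shown because its groups lay apart, Dlk1 because it is the classic preadipocyte gene, and both Gata2 starts because the Gata2 probe sets gave opposite signs. Which start the transcripts read by each Gata2 probe set come from was not determined. Capitals mark matches to short motifs searched on both strands, and no matches overlapped. The TATA box was searched as TATAAA, the box of CCAAT-binding factors by those letters and the GC box as GGGCGG. The motif of GATA factors was searched only in the form AGATAA.
S100a4, chr3:90603520-90603769: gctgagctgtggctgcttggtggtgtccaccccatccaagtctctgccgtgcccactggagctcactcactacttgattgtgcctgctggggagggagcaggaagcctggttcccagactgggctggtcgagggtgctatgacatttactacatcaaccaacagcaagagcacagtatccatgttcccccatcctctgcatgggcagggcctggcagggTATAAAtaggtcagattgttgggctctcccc
Dlk1, chr12:109452573-109452822: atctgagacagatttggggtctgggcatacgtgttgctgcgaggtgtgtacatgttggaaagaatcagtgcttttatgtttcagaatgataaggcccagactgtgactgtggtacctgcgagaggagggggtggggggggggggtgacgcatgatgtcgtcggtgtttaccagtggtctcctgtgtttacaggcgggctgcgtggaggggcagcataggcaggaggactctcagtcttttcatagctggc
Gata2, first start, chr6:88193641-88193890: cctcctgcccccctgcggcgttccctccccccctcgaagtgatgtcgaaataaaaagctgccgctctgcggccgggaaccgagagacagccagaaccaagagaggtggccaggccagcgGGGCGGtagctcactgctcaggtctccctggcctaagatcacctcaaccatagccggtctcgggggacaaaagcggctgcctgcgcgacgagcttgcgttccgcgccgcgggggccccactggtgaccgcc
Gata2, second start, chr6:88198414-88198663: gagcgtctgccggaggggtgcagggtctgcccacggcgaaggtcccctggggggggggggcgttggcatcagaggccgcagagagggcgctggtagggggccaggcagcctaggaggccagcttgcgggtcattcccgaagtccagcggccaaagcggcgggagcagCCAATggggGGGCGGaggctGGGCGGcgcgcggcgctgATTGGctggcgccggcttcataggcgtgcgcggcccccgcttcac
The S100a4 window held a TATA box that begins 31 bases before the start, a motif present in 12.4% of all 32851 windows of this length. The first Gata2 window held 1 GC box, and the second held GC boxes 74 and 63 bases before the start, with CCAAT boxes on the plus strand and, as ATTGG, on the minus strand. GC boxes were present in 32.7% and CCAAT boxes in 33.8% of all windows. None of the 4 motifs as searched was in the Dlk1 window, and AGATAA, in 9.99% of all windows, was in none of the 4 shown. The Dlk1 window does hold TGATAA, which differs from AGATAA in its first base and was not searched for. A match is a description of these letters and not a binding site.

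Dlk1 did not differ beyond the spread between arrays. Its brighter probe set, 1449939_s_at, had intensities of 4170, 3833 and 3559 on control replicates 1 to 3 and 4255, 3743 and 4196 on the resveratrol arrays. The groups overlapped, with a log2 difference of 0.077 ± 0.092 (SE, adjusted p = 0.703) and a 95% interval of -0.13 to 0.28. Its ID ends in _s_at, a mark of probe sets that can match more than 1 transcript. The other probe set, 1442724_at, was dim in all arrays, from 22.1 to 30.2, with a difference of -0.0019 and a 95% interval of -0.37 to 0.37. It was 0.092 within the arrays of brighter spikes and -0.16 within those of dimmer spikes. The wide interval of the dim probe set bounds the difference of Dlk1 less tightly than that of the bright one.

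The receptors for platelet-derived growth factor, PDGFRA and PDGFRB, are tyrosine kinases of mesenchymal progenitors, the first on adipocyte progenitors and the second also on mural cells. The brightest Pdgfra probe set, 1421917_at, had 1489, 1433 and 1783 in control and 1724, 1359 and 1402 in treated cultures, so the groups overlapped throughout. Its log2 difference was -0.07 ± 0.11 (SE, adjusted p = 0.782). Within the arrays of brighter spikes it was 0.24, and within those of dimmer spikes -0.37. The middle probe set, 1421916_at, had means of 306 ± 20.6 and 307 ± 21.4 (SD, n = 3), with a 95% interval of the difference of -0.19 to 0.19. Its difference was 0.10 within the arrays of brighter spikes and -0.085 within those of dimmer spikes. The dimmest, 1438946_at, had 73.1, 62.2 and 89.7 in control and 76.6, 118 and 113 in treated cultures. Here 2 of the 3 treated arrays lay above all controls, with a difference of 0.37 ± 0.17 (SE, adjusted p = 0.225).

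Pdgfrb had intensities of 699, 592 and 752 in control cultures and 741, 771 and 792 in treated cultures at 1436970_a_at. Only the lowest treated array lay within the control range, and the difference of 0.18 ± 0.09 (SE, adjusted p = 0.299) did not pass. At 1417148_at the values were 200, 183 and 179 against 218, 196 and 203, with a difference of 0.12 ± 0.09 (adjusted p = 0.494). Both probe sets of Pdgfrb had higher treated means, and the 3 probe sets of Pdgfra had a lower, a nearly equal and a higher one.

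Thy1, which encodes the surface glycoprotein CD90 of fibroblasts, neurons and T cells, was the marker that rose. Its single probe set, 1423135_at, had 905, 969 and 878 on control replicates 1 to 3 and 1230, 1156 and 1247 on the resveratrol arrays. Every treated array lay above every control array, and the SD was 5.10% of the mean in control and 3.995% in treated cultures. The log2 difference was 0.40 ± 0.07 (SE, 95% interval 0.23 to 0.56), with adjusted p = 0.0078 in limma. An exact permutation of the 6 arrays gave a 2-sided p = 0.1, the smallest this design allows. The difference was 0.39 within the arrays of brighter spikes and 0.45 within those of dimmer spikes. The call was lost when the variance model had no intensity trend (adjusted p = 0.0649), and held in the 16 other alternatives, where the difference ranged from 0.37 to 0.44.

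Blood cells can carry THY1, and 13 of their marker genes were read in these 3T3-L1 cultures. Of these, 11 had a probe set and 6 were bright enough to be tested. The summed intensity of the 11, tested or not, was 392 to 456 in control and 480 to 538 in treated cultures. Cd14, a receptor for bacterial lipopolysaccharide on macrophages and other cells, was the 1 that passed, higher by 0.47. Lyz2 went from 59.5 ± 8.23 to 85.9 ± 14.1 (SD, n = 3), a difference of 0.43 ± 0.15 (SE, adjusted p = 0.102), and did not pass. The T cell genes Cd3e, Cd3g and Cd4 and the leukocyte gene Ptprc had group means between 4.28 and 13.4, under 20.3, the lowest mean intensity that passed the filter. The T cell gene Cd8a was brighter, at 72.1 ± 14.8 and 69.9 ± 7.01 (SD, n = 3) at a probe set that may cross-hybridise, with a difference of -0.026 ± 0.15 (SE, adjusted p = 0.95). Every sample is labelled as 3T3-L1 cells, so the blood cell sum is a level of marker genes in a cell line and not an amount of blood cells. The part of this sum in the Thy1 difference was not tested. Among 8 endothelial markers 2 were bright enough to be tested, Cdh5 and Kdr, and neither passed or had an unadjusted p under 0.05. Summed over all 8, tested or not, intensities were 89.9 to 124 in control and 107 to 139 in treated cultures. Among 8 markers of mural cells, 5 were tested in limma and none passed or had an unadjusted p under 0.05 (0 of 5). The sums over all 8 were 547 to 608 in control and 528 to 592 in treated cultures.

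Cd34, a sialomucin of progenitor and endothelial cells, was dim. Its probe set 1416072_at had 19.2, 16.7 and 17.5 in control and 16.4, 11.4 and 16 in treated cultures. The treated arrays all lay below the control arrays, at the closest by 16.4 against 16.7. Without the filter its difference was -0.15 ± 0.16 (SE) with adjusted p = 0.763. All 6 values lay under 20.3, the lowest mean intensity that passed the filter. No change was detected, and the low signal limits what can be said of Cd34.

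GATA factors gave no shared picture. Gata2 had 115, 125 and 138 in control and 110, 88.1 and 97.7 in treated cultures at its brighter probe set, 1450333_a_at. The treated arrays all lay below the control arrays, and the difference of -0.31 ± 0.12 (SE, adjusted p = 0.143) did not pass. It was -0.12 within the arrays of brighter spikes and -0.50 within those of dimmer spikes. The dimmer probe set, 1428816_a_at, had 28.9, 17.3 and 33.2 against 26.0, 40.1 and 48.4, a difference of the opposite sign, 0.35 ± 0.21 (adjusted p = 0.391). Its spread within groups was the widest of the tested control values, with an SD of 31.1% of the mean. Gata3 lay at 2.30 to 4.90 on all 6 arrays at 1448886_at and was not tested. Without the filter it had a difference of -0.03 ± 0.09 (adjusted p = 0.921), so no change was detected for it at this low signal.

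Fap, which encodes fibroblast activation protein, was the marker that fell. Its probe set, 1417552_at, had 102, 99.9 and 152 in control cultures and 39.1, 75.5 and 57.6 in treated cultures. The highest treated array lay below the lowest control array, but the spread within both groups was wide, with SDs of 29.8 and 18.2 on means of 118 and 57.4. The log2 difference was -0.88 ± 0.20 (SE, 95% interval -1.32 to -0.44), with adjusted p = 0.0218 in limma, and the exact 2-sided permutation p was 0.1, again the smallest possible. Within the arrays of brighter spikes the difference was -1.08, and within those of dimmer spikes -1.04. The single treated array of the first was the lowest treated one, and the single control array of the second was the highest control.

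Leaving out 1 array ended the Fap call in 3 of 6 cases. Without control replicate 3, the highest control, the difference was -0.70 (adjusted p = 0.0699), without resveratrol replicate 1, the lowest treated array, -0.68 (adjusted p = 0.0726), and without resveratrol replicate 3, -0.89 (adjusted p = 0.0512). It was also lost with no filter on the mean level (adjusted p = 0.0748) and with no intensity trend (adjusted p = 0.0774). With an offset of 64 in place of 16 the difference was -0.58, and with the spike signal split as a block it was -1.06 (adjusted p = 0.00176). All 17 alternatives gave a lower treated level.

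S100a4 had intensities of 4468, 4241 and 4375 in control and 6645, 5028 and 5425 in treated cultures at 1424542_at. The controls lay close together, with the smallest SD of the tested marker probe sets relative to the mean, 2.61%, and every treated array lay above them. Resveratrol replicate 1 was the highest by a wide margin. The difference was 0.38 ± 0.11 (SE, 95% interval 0.14 to 0.61) with adjusted p = 0.0556. Within the arrays of brighter spikes, which include replicate 1, it was 0.61, and within those of dimmer spikes 0.25. It passed in 5 of 17 alternatives, among them quantile normalization (0.44, adjusted p = 0.00637) and the spike signal split as a block (0.43, adjusted p = 0.0147), and had adjusted p = 0.199 without resveratrol replicate 1.

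**Figure D2:**
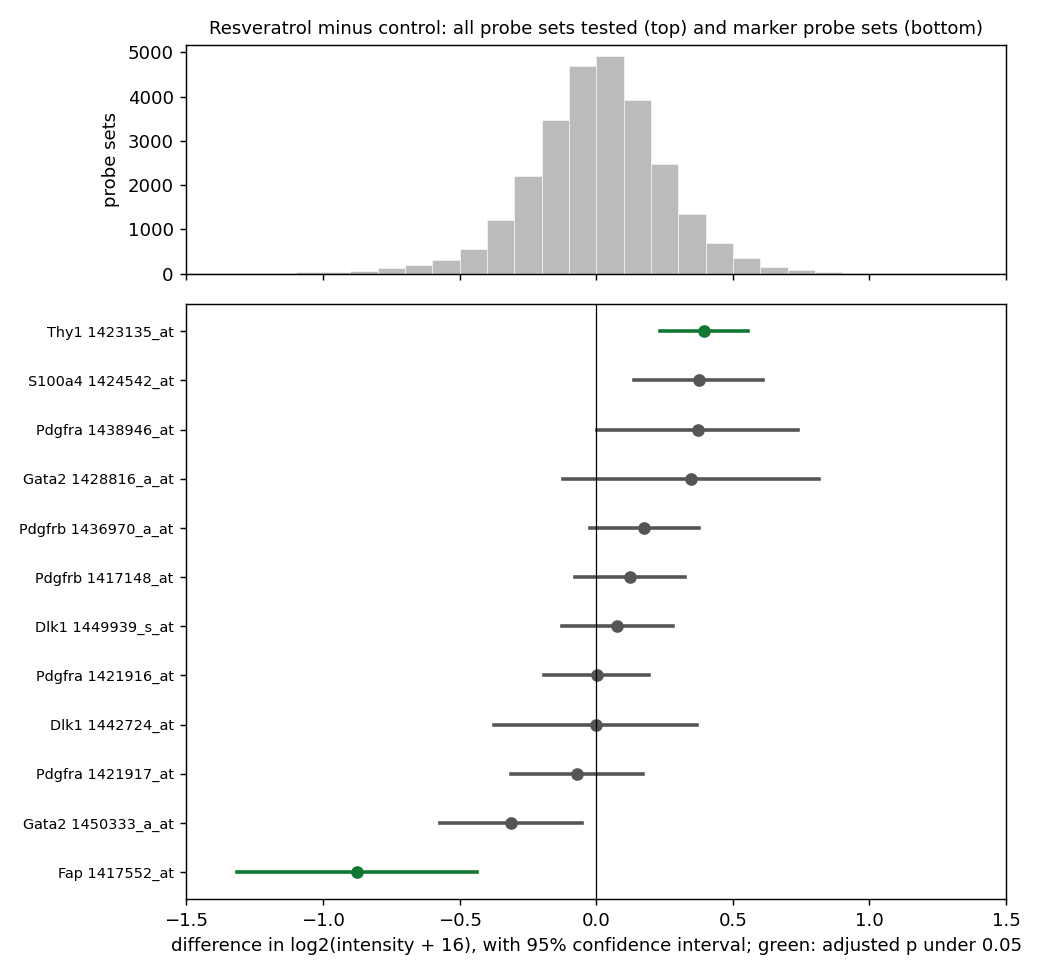
Differences in log2(intensity + 16), resveratrol minus control: a histogram of all 27022 probe sets tested (top, of which 38 beyond 1.5 in size lie outside the axis) and the 12 tested marker probe sets with 95% confidence intervals (bottom; green marks an adjusted p under 0.05). Thy1 at 0.396 and Fap at -0.88 are the 2 that passed. The 5% and 95% quantiles of all probe sets tested are -0.407 and 0.4005, and of the marker probe sets only Fap lies outside them.

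**Figure D3:**
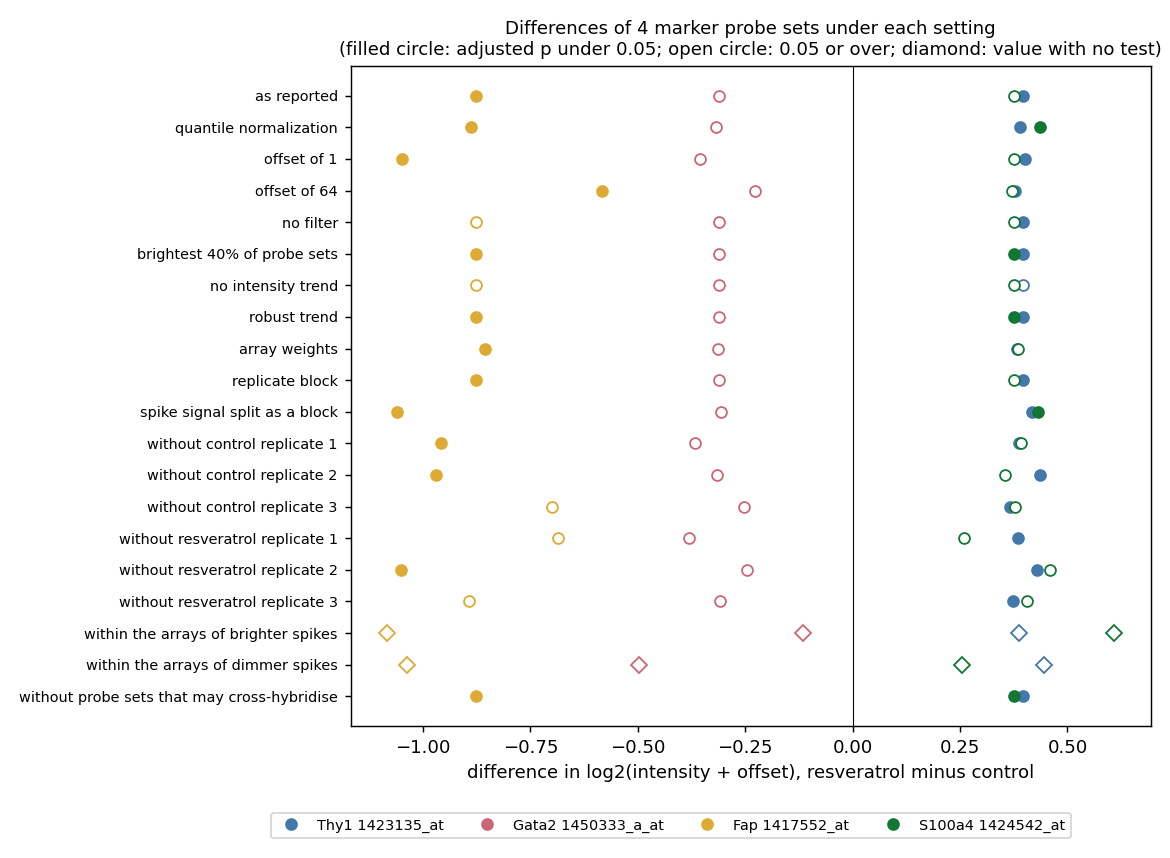
Difference of Thy1, S100a4, 1 Gata2 and the Fap probe set (horizontal axis, log2 of intensity plus offset) under each setting of the analysis (vertical axis); filled circles have an adjusted p under 0.05, open circles do not, and diamonds have no test. Thy1 stays between 0.37 and 0.45, S100a4 crosses the threshold in 5 settings, and Fap lies below 0 in every setting.

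Genes related to the markers were described from 8 lists chosen with earlier results of these data known, with each gene standing by its brightest probe set. Of all 12630 genes tested, 5.32% were higher and 5.21% lower, and 10.5% passed in either direction. Over the 8 lists, 91 of 122 genes were tested, 7 rose and 12 fell. Of the 72 that did not pass, 5 had a dimmer probe set that did, Cd44, Col3a1, Cdh2, Zfpm2 and Fabp4, of which the first 3 are named after their values were seen.

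Other adipose progenitor genes moved in both directions. Of 20 genes 15 were tested, 3 rose, 1 fell and 11 did not pass, with a median difference of 0.14 against 0.02 over all genes tested. Zfp521, a zinc finger factor that holds back adipogenesis, rose from 170 ± 7.58 to 259 ± 17.3 (SD, n = 3), a log2 difference of 0.56 ± 0.09 (SE, adjusted p = 0.00339). F3, the tissue factor gene whose product is also called CD142, rose from 652 ± 66.1 to 947 ± 91.7, by 0.53. The annexin gene Anxa3 rose by 0.50, from 101 to 149. Ebf2, a transcription factor of brown fat precursors, fell from 96.8 ± 2.76 to 65.1 ± 4.31, a difference of -0.48 ± 0.12 (adjusted p = 0.0304).

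Fibroblast and mesenchymal genes were all bright enough to be tested, 20 of 20, and 1 rose, 3 fell and 16 did not pass, with a median of -0.11. Twist2, a basic helix-loop-helix factor of mesenchyme, rose from 356 ± 20.7 to 481 ± 47.0 (SD, n = 3), by 0.42. The matrix genes Lum, Dcn and Postn fell, with differences of -0.59, -0.50 and -0.48. Fap, a protease, was thus among several fibroblast genes that were lower, while Thy1 and Twist2 were higher. Vim, the intermediate filament gene used to mark mesenchymal cells and named here after its value was seen, had a difference of 0.03 ± 0.13 (SE, adjusted p = 0.94).

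Ligands and partners of DLK1, the PDGF receptors and the GATA factors gave no calls in limma at their brightest probe sets. Of 18 genes 16 were tested and none passed, at a median of 0.17. The smallest p-values belonged to Ctbp2, a corepressor, at 0.22 ± 0.08 (SE, adjusted p = 0.13), Zfpm2, the GATA cofactor FOG2, at 0.30 (adjusted p = 0.147), Pdgfrl at 0.20 (adjusted p = 0.191) and Dlk2, the paralog of Dlk1, at 0.36 (adjusted p = 0.194). Each had an unadjusted p under 0.05, which is not a call. A dimmer probe set of Zfpm2 did pass, going from 30.1 ± 8.82 to 59.8 ± 9.10 (SD, n = 3), a difference of 0.73 ± 0.18 (SE, adjusted p = 0.0295).

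Relatives of S100A4, LY6A and FAP split. Of 21 genes 16 were tested, 2 rose, 3 fell and 11 did not pass, with a median of 0.08. S100a1, a calcium-binding relative of S100a4, fell from 2257 ± 219 to 1228 ± 164 (SD, n = 3), a difference of -0.87 ± 0.11 (SE, adjusted p = 0.000625), and its other probe set passed too, at -0.52. S100b, named after its value was seen, fell by 0.70 on the log2 scale. S100a8, which encodes a subunit of calprotectin, rose from 581 ± 43.6 to 884 ± 9.89, by 0.60 (adjusted p = 0.000885), while its partner S100a9 was too dim to test, at 3.88 and 4.03. Its probe set ID ends in _s_at, so it can match more than 1 transcript. S100a5 and S100a6, which follow S100a4 in the gene order of GRCm38.p6 and were named after their values were seen, had differences of -0.08 (adjusted p = 0.825) and 0.31 (adjusted p = 0.0525). The S100a6 value was of the same sign as that of S100a4, and like it lay just outside the threshold. Ly6e, a GPI-anchored relative of Ly6a, fell from 830 ± 99.9 to 587 ± 39.3, a difference of -0.49. Dpp7, which encodes a lysosomal dipeptidyl peptidase, rose by 0.51 at its brightest probe set. Its other tested probe sets did not pass, at 0.17 (adjusted p = 0.392) and -0.045 (adjusted p = 0.927).

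Adipocyte markers stood on the lower side, with 5 of 11 tested genes lower, none higher and a median of -0.31. The lower genes were Slc2a4, Cidec, Retn, Cd36 and Pnpla2, and Slc2a4, the insulin-responsive glucose transporter, had the largest fall of these, from 880 ± 61.2 to 380 ± 73.3 (SD, n = 3). The summed intensity of the list was 50037 to 70050 in control and 45496 to 54073 in treated cultures, so the sums overlapped. Pparg, the target that GATA2 and GATA3 repress, had -0.26 ± 0.08 (SE, adjusted p = 0.061) and did not pass. The brighter Gata2 probe set was at -0.31 (adjusted p = 0.143) and the dimmer at 0.35 (adjusted p = 0.391), and neither passed. Gata3 was too dim to test. A link between these genes and Pparg was not tested. The part of the adipocyte gene levels in the marker differences was not tested either.

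**Figure D4:**
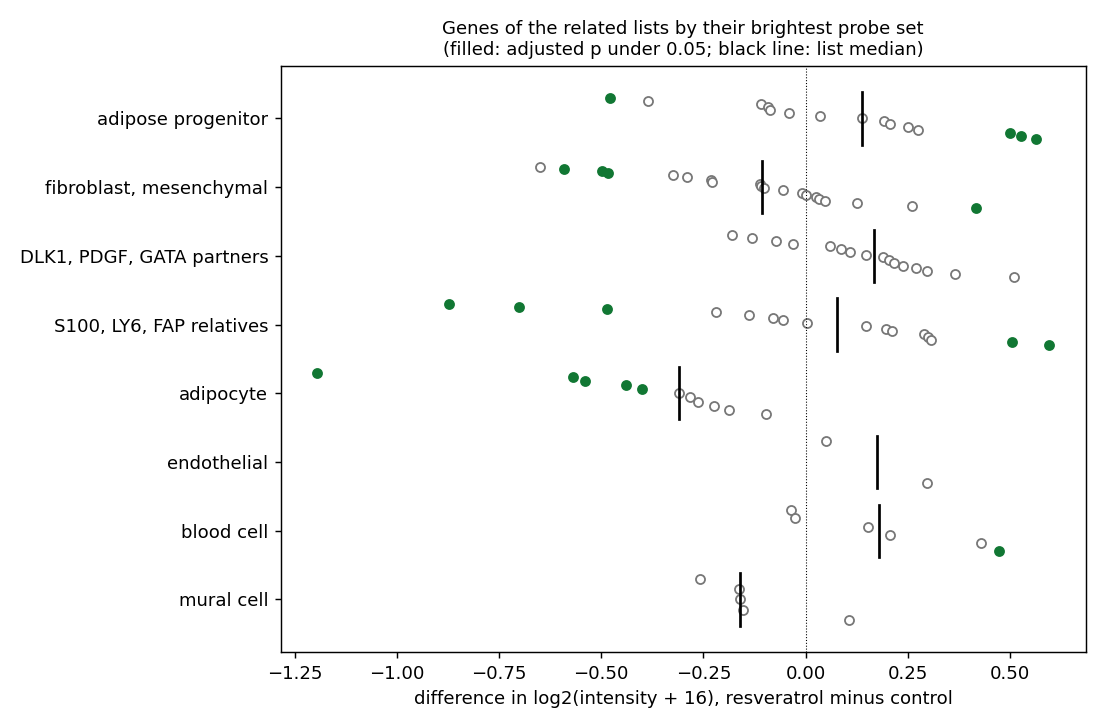
Differences in log2(intensity + 16), resveratrol minus control (horizontal axis), of the tested genes of the 8 lists (vertical axis), each by its brightest probe set; filled points have an adjusted p under 0.05 and black lines are list medians. Progenitor genes and relatives of the markers have filled points on both sides of 0, and the adipocyte list has 5 on the lower side only.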

How the data were processed

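RNA was isolated with Trizol, and biotin-labelled target was made by the standard Affymetrix protocol, per the labels' protocols. The authors deposited linear intensities, 1 per array and probe set, with 1 scaling factor per array as read from the values. Which program summarised the probes is not given here. The values of control replicate 1 carry more decimals than the others. Probe sets were named through the platform annotation: 34945 named 1 gene, 932 several and 9160 none, and 64 control probe sets were left out. The genome build of the array is not given, so coordinates are given only for the RefSeq upstream windows, on GRCm38.p6.

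Values were turned into log2(intensity + 16). The brightest 60% of probe sets by mean log2 value over all 6 arrays were tested with limma 3.58.1 in R 4.3.3 (lmFit, eBayes with an intensity trend), 2-sided, at an adjusted p of 0.05, and the fit was tested on simulated data. Spike brightness was the mean log2 signal of 18 spike probe sets, split at its widest gap. The markers, lists and tests were chosen with earlier results of these data known. Named are all members, up to 4 genes a list (those of smallest p) and Fabp4, Adipoq, Pparg and Slc2a4. Other genes, among them S100a9, Pnpla2 and the blood cell genes Cd3e, Cd3g, Cd4, Cd8a and Ptprc, were chosen after their values were seen. Alternatives were the normalization, offset, filter, variance model, array weights, replicate and spike blocks, probe set choice and leaving out each array. Figures were drawn with Python 3.11.15 and matplotlib 3.10.9.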

Additional observations from a re-analysis of the deposited data

How the results depend on the processing

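The count of marker probe sets called, 2 of 12 tested (1 higher, 1 lower), was 1 with no filter (0 lower) and 0 with no intensity trend (0 higher and 0 lower), where 861 of 27022 probe sets were called in all. The count of higher marker probe sets was 2, with S100a4 added to Thy1, under quantile normalization, the brightest 40% of probe sets, the robust trend, the spike signal split as a block and without probe sets that may cross-hybridise. Leaving out each array gave 1 to 2 marker probe sets called, always 1 higher and 0 to 1 lower, and 11 to 21 list genes, against 19; the lowest list count was reached without control replicate 2 and without resveratrol replicate 2. With no intensity trend 8 list genes were called. Among the settings with a test, signs turned only for the dim Dlk1 probe set and the brighter Pdgfra probe sets, none of them called. The dim Dlk1 probe set ranged from -0.066 to 0.073 over the fits that leave out 1 array (lowest without control replicate 1, highest without control replicate 3), the brightest Pdgfra probe set from -0.176 to 0.025 and the middle one from -0.053 to 0.055. The middle one had -0.0038 with quantile normalization and -0.0099 with array weights. The cause of these changes was not tested. Same-numbered arrays did not deviate together (correlations of -0.061, -0.016 and 0.093 over probe sets), so the numbers were not taken as pairs. With the replicate block 2 marker probe sets and 17 list genes were called. Dim probe sets such as those of Cd34 and Gata3 limit what can be said of these genes.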
